A study of Mus musculus with 3 samples.

Results

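Tight junction genes were examined in RNA from sorted leptomeningeal cells of the mouse. The set comprised the claudins Cldn1, Cldn5, Cldn10 and Cldn11, the occludin gene Ocln, the zonula occludens gene Tjp1, and the junctional adhesion molecules F11r, Jam2 and Jam3. These 9 genes were chosen by symbol from a table of 46983 genes, and each was found once. The 3 libraries were replicates of 1 group, the pia-enriched fraction of vehicle-treated mice, numbered 1 to 3 as labelled. The nature of the vehicle, and the strain, genotype, sex and age of the mice, are not given in the sources used here, nor is the sort gate. The labels do not say whether the libraries came from separate mice, so the tests measure the spread between these libraries, which may be technical.

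Tight junctions seal the space between neighbouring cells. Claudins form the sealing strands, occludin joins them, and JAMs are immunoglobulin-type adhesion proteins beside the strands. The tails of claudins and JAMs bind the PDZ domains of scaffold proteins such as ZO-1, the product of Tjp1, which connects the junction to actin. In the meninges these junctions are best known from the arachnoid barrier layer, which separates the cerebrospinal fluid from the dura, where claudin-11 is a typical component. Brain endothelium uses claudin-5 as its main claudin.

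The coding ends below are shown because they are the shared feature by which these membrane proteins meet the Tjp1 product. Each is the last 30 coding bases before the stop codon, 5′ to 3′, from the GENCODE M21 transcripts, and capitals mark the final 3 codons, which encode the PDZ-binding tail.
Cldn1: ccaacaccttctagtgggaaaGACTATGTG
Cldn5: aatggcgattacgacaagaagAACTATGTC
Cldn10: tcaaaacagtttgataaaaatGCCTATGTC
Cldn11: tcgccaacgcatgccaagagtGCCCATGTC
F11r: gaattcaaacagacctcgtcgTTCCTGGTG
Jam2: gatttcaagcacacaaaatccTTTATAATT
Jam3: gacttcagacacaaatcgtccTTTGTTATC
On GRCm38 these stretches lie at chr16:26359041-26359070 (minus strand) for Cldn1, chr16:18777620-18777649 (plus) for Cldn5, chr14:118874283-118874312 (plus) for Cldn10 and chr3:31163276-31163305 (plus) for Cldn11. Those of the JAM genes lie at chr1:171463062-171463091 (plus) for F11r, chr16:84822787-84822816 (plus) for Jam2 and chr9:27098369-27098398 (minus) for Jam3.

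The claudin signature is shown next, because counts of related genes are only as good as the reads' ability to tell them apart. Each stretch codes for the conserved part of the first extracellular loop, from a tryptophan to a cysteine codon. Capitals mark the 3 codons at the core of the signature. The stretch is from the principal transcript of longest coding sequence of each gene, so other transcripts, such as those of Cldn10, are not shown.
Cldn1: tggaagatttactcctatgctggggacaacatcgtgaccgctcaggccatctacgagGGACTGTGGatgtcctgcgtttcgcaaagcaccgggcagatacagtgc
Cldn5: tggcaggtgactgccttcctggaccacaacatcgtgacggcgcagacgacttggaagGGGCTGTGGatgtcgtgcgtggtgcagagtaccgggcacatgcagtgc
Cldn10: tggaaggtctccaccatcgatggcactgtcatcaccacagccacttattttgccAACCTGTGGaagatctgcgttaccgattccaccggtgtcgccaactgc
Cldn11: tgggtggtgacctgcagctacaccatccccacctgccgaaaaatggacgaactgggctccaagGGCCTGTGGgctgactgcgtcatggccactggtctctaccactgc
They lie at chr16:26371435-26371539 (minus strand), chr16:18777083-18777187 (plus), chr14:118855077-118855178 (plus) and chr3:31150237-31150344 (plus) of GRCm38, in the order printed. The Cldn1 and Cldn5 stretches were identical at 72 of 105 bases (68.6%). Even so, 0 of the 50-base words in the transcripts of Cldn1, Cldn5, Cldn10, Cldn11, Ocln, Tjp1 and Jam2 occurred in an annotated transcript of another gene, on either strand. For F11r the share was 0.868% of 2650 words. For Jam3 it was 29.4% of 3145 words, all shared with Gm48796, an antisense gene that overlaps 1159 exon bases of Jam3 and has no row in the table; since the strand setting is not given in the sources used here, reads of the pair may have been counted together under Jam3.

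Every tight junction gene was detected, but at levels that differed widely. All 9 passed the filter on low counts (about 10 counts in each library), as did 30.7% of all genes. A level of at least 1 count per 1000000 gene counts (CPM) in every library was reached by 8 of the 9 and by 27.3% of all genes; Ocln was the exception. Levels between genes are compared below as CPM per kilobase of merged exon length. The median of the 9 means was 4.18 CPM per kilobase, beside 3.70 for all 14409 genes past the filter. In bulk RNA, fewer cells of a type and less RNA per cell cannot be told apart.

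Among the strand-forming claudins, Cldn11 was the most abundant. Cldn11 (ENSMUSG00000037625.7, chromosome 3, 31149920 to 31164324), also a claudin of central myelin, had 687, 746 and 841 counts in libraries 1, 2 and 3. This is 18.6, 13.4 and 17.3 CPM per kilobase (16.4 ± 2.70, SD, n = 3), at percentile 80.9 of the genes past the filter. The libraries lay close together, with library 2 lowest.

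Cldn1 (ENSMUSG00000022512.2, chromosome 16, 26356642 to 26371841), a claudin of many epithelia, had 144, 525 and 618 counts. Its level was 1.50, 3.64 and 4.92 CPM per kilobase (3.36 ± 1.73, SD, n = 3). Library 1 was low and libraries 2 and 3 were nearer to each other.

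Cldn5 (ENSMUSG00000041378.1, chromosome 16, 18776847 to 18778262), the endothelial claudin, had 23, 66 and 83 counts. Per kilobase it stood at 0.821, 1.57 and 2.26 CPM (1.55 ± 0.72, SD, n = 3), again with library 1 lowest. Cldn10 (ENSMUSG00000022132.15, chromosome 14, 118787908 to 118875489), whose product forms ion-selective pores, had 31, 31 and 61 counts, or 0.605, 0.402 and 0.907 CPM per kilobase (0.638 ± 0.25, SD, n = 3). It was the lowest of the set by this measure, at percentile 13.6. The gene has alternative first exons that give proteins of different ion selectivity, and counts per gene do not separate them.

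Ocln (ENSMUSG00000021638.12, chromosome 13, 100496507 to 100552718) was the least even gene of the set. It had 12, 134 and 246 counts in libraries 1, 2 and 3, which is 0.144, 1.07 and 2.25 CPM per kilobase (1.15 ± 1.05, SD, n = 3). Library 1 held few reads of the gene: its 12 counts are 0.607 CPM before division by length, where a count of 0 allows up to 0.152. Without library 1 its mean was 6.99 CPM, without library 3 it was 2.55 CPM, and with all libraries 4.86 CPM, none of them divided by length.

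The JAM genes were carried by Jam3. Jam3 (ENSMUSG00000031990.14, chromosome 9, 27097384 to 27155421), encoding JAM-C, had 3169, 3849 and 3768 counts. At 50.1, 40.4 and 45.4 CPM per kilobase (45.3 ± 4.84, SD, n = 3) it was the highest gene of the set in every library, at percentile 92.2. The 3 values overlapped those of no other gene in the set.

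Jam2 (ENSMUSG00000053062.15, chromosome 16, 84774123 to 84825928), encoding JAM-B, had 719, 1391 and 1084 counts, or 6.01, 7.73 and 6.91 CPM per kilobase (6.88 ± 0.86, SD, n = 3). F11r (ENSMUSG00000038235.4, chromosome 1, 171437535 to 171464603) encodes JAM-A, found on epithelia, endothelium, leukocytes and platelets. It had 338, 441 and 715 counts, or 6.42, 5.56 and 10.3 CPM per kilobase (7.44 ± 2.55, SD, n = 3), with library 3 highest. Of the summed JAM level per kilobase, Jam3 took 80.1%, 75.2% and 72.4% in libraries 1, 2 and 3, F11r 12.4% ± 3.58 and Jam2 11.7% ± 2.45 (SD, n = 3).

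Tjp1 (ENSMUSG00000030516.14, chromosome 7, 65296165 to 65527781), the scaffold gene, had 471, 1180 and 895 counts. Its level was 3.05, 5.07 and 4.42 CPM per kilobase (4.18 ± 1.03, SD, n = 3). Library 1 was lowest and library 2 highest.

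The order by mean log2 level per kilobase was Jam3, Cldn11, F11r, Jam2, Tjp1, Cldn1, Cldn5, Ocln and Cldn10. Neighbours in this order were called separated where the higher gene was higher in 3 of 3 libraries and the mean difference exceeded its SD. That held for 4 of 8 pairs. Jam3 exceeded Cldn11 by 1.47 ± 0.11 in log2 level per kilobase (SD, n = 3), a difference that was almost the same in every library. Cldn11 exceeded F11r by 1.18 ± 0.40, Jam2 exceeded Tjp1 by 0.74 ± 0.20, and Cldn1 exceeded Cldn5 by 1.07 ± 0.18. F11r and Jam2 (0.07 ± 0.53), Tjp1 and Cldn1 (0.45 ± 0.59), Cldn5 and Ocln (1.03 ± 1.32) and Ocln and Cldn10 (0.21 ± 1.98) did not differ beyond their spread. The position of Ocln depended on library: in library 1 it was lowest, and in library 3 it was level with Cldn5, at 2.25 and 2.26 CPM per kilobase.

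**Figure D1:**
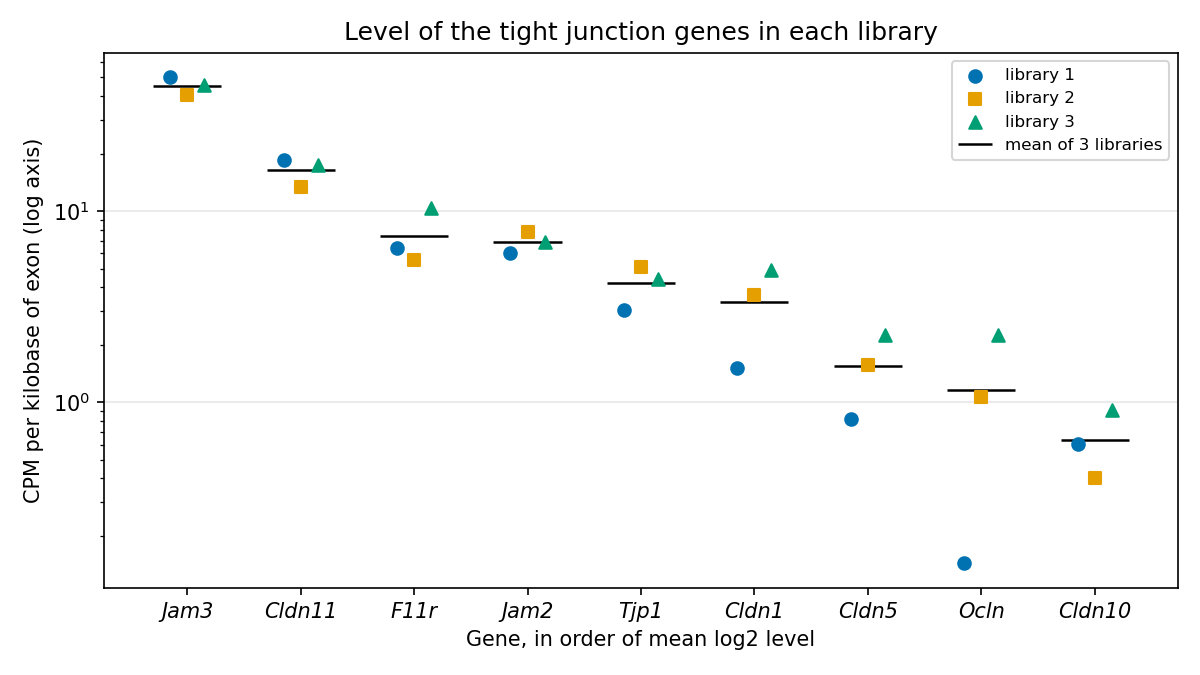
Level of each tight junction gene in CPM per kilobase of exon (log axis), 1 symbol per library and a line at the mean of 3 libraries, with genes in order of mean log2 level. Jam3 lies highest in every library at 40.4 to 50.1, and Ocln spans 0.144 to 2.25.

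Seen against the whole claudin family, Cldn11 led and the other claudins of the set were minor. Of 23 numbered claudin genes in the table, 19 had a count in some library and 12 passed the filter. Cldn11 took 44.7%, 27.4% and 31.8% of the summed claudin level per kilobase in libraries 1, 2 and 3. Cldn1 took 6.70% ± 2.78, Cldn5 3.11% ± 1.09 and Cldn10 1.31% ± 0.44 (SD, n = 3). Together the 4 claudins of the set made up 51.7%, 38.9% and 46.6% in the 3 libraries.

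The rest lay mainly with claudins outside the set. Cldn12, a widely expressed claudin that lacks the usual PDZ-binding tail, took 18.7% ± 5.58, Cldn19, a claudin of Schwann cells and kidney, 15.5% ± 2.35, and Cldn2, a cation-pore claudin of the choroid plexus epithelium, 8.57% ± 3.47 (SD, n = 3). Cldn16, Cldn17, Cldn18 and Cldn24 had 0 counts in every library, which allows up to 0.152, 0.101 and 0.116 CPM in libraries 1, 2 and 3 (counting error only).

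**Figure D2:**
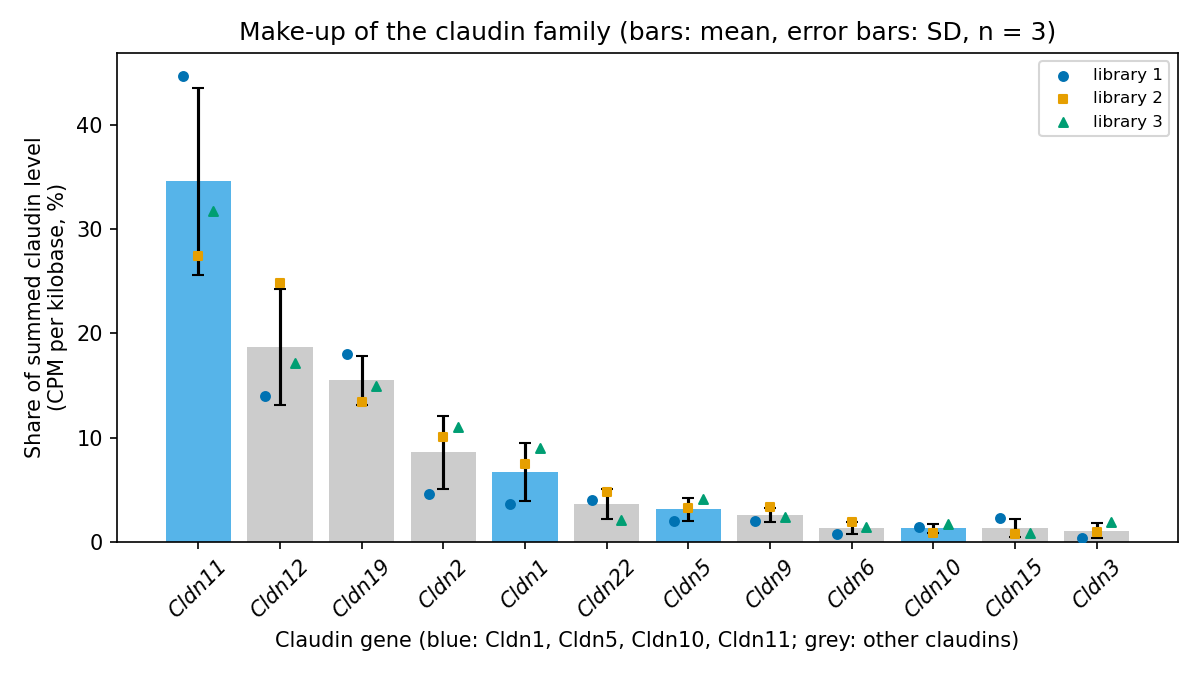
Share of the summed claudin level (CPM per kilobase, in %) held by the 12 claudins of highest mean share; bars are means and error bars SD of 3 libraries, symbols are libraries, and blue marks the claudins of the set. Cldn11 is the tallest bar, with 27.4% to 44.7%, and Cldn10 is at 1.31%.

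With 1 group there is no contrast between conditions, so the test asked whether a gene varied between libraries by more than genes of its abundance usually do (edgeR goodness of fit at the trended dispersion, Benjamini-Hochberg over 14409 genes). It called 0 of the 9 tight junction genes, beside 0.437% of all genes. At an unadjusted p under 0.05 it gave 1 of the 9, Ocln, beside 7.04% of all genes. For Ocln, which ranged over 2.71 on the log2(CPM + 1) scale, p was 0.000921 and the edgeR adjusted p 0.109. Over 9 alternatives that adjusted p (edgeR) ran from 0.0219, with a common dispersion, to 0.999 without library 1. The common dispersion called 1 of the 9 genes, Ocln, beside 0.583% of all genes. Next came Cldn1, with a range of 1.58 and an edgeR adjusted p of 0.878. The ranges of the other 7 lay between 0.31 for Jam3 and 0.96 for Cldn5, each with an edgeR adjusted p of 0.9998. The median range of the set was 0.72, beside 0.67 for all genes past the filter, so that the set as a whole stood near the background.

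Library 1 was lowest for 5 of the 9 genes (Cldn1, Cldn5, Ocln, Tjp1 and Jam2), beside 40.3% of all genes past the filter. Library 2 was lowest for the others. In library 1, transcripts of low GC content were lower than in the other libraries: in the tenth of genes with the lowest GC content (median 39.9%) the median deviation of library 1 was -0.71 on the log2(CPM + 1) scale, and in the tenth with the highest (median 59.4%) it was 0.24. Cldn1 and Ocln have the lowest GC content of the set, at 39.0% and 42.0% of the longest transcript, and Cldn5 the highest, at 60.5%.

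Removal of the trends with GC content and exon length changed these genes unequally. The range of Cldn1 shrank from 1.58 to 0.61, and library 1 then lay beside library 2. That of Ocln went from 2.71 to 2.01, with library 1 still lowest and library 3 highest. The range of Cldn5 grew from 0.96 to 1.35, with library 1 still lowest. For Tjp1 it fell from 0.71 to 0.36 and for Jam2 from 0.35 to 0.14, while Jam3 widened from 0.31 to 0.48. With the trends removed, 0 of the 9 were called, beside 0.68% of all genes (edgeR goodness of fit).

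**Figure D3:**
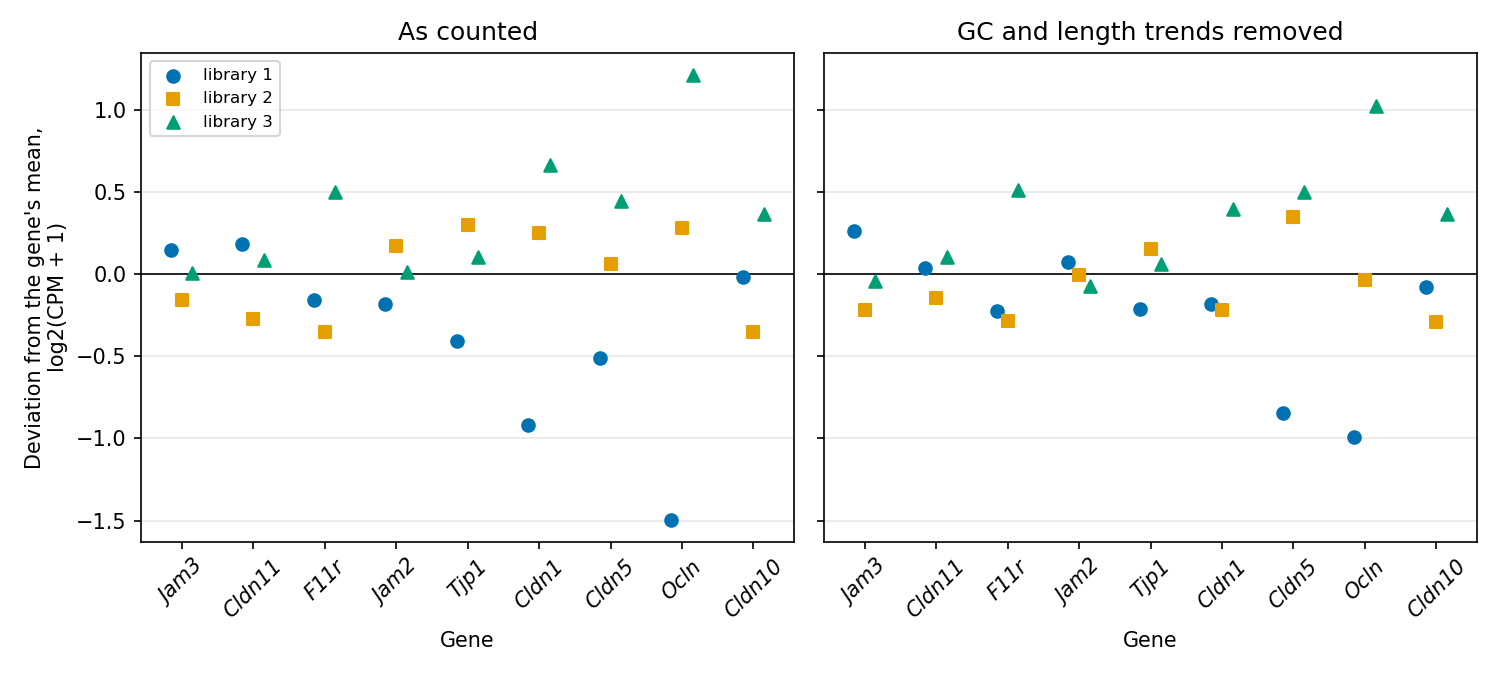
Deviation of each library from the gene's own mean in log2(CPM + 1), as counted (left) and with the trends of GC content and exon length removed (right), 1 symbol per library. Library 1 is far below the others for Cldn1 only on the left (-0.92 against -0.18), and for Ocln and Cldn5 on both sides.

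**Figure D4:**
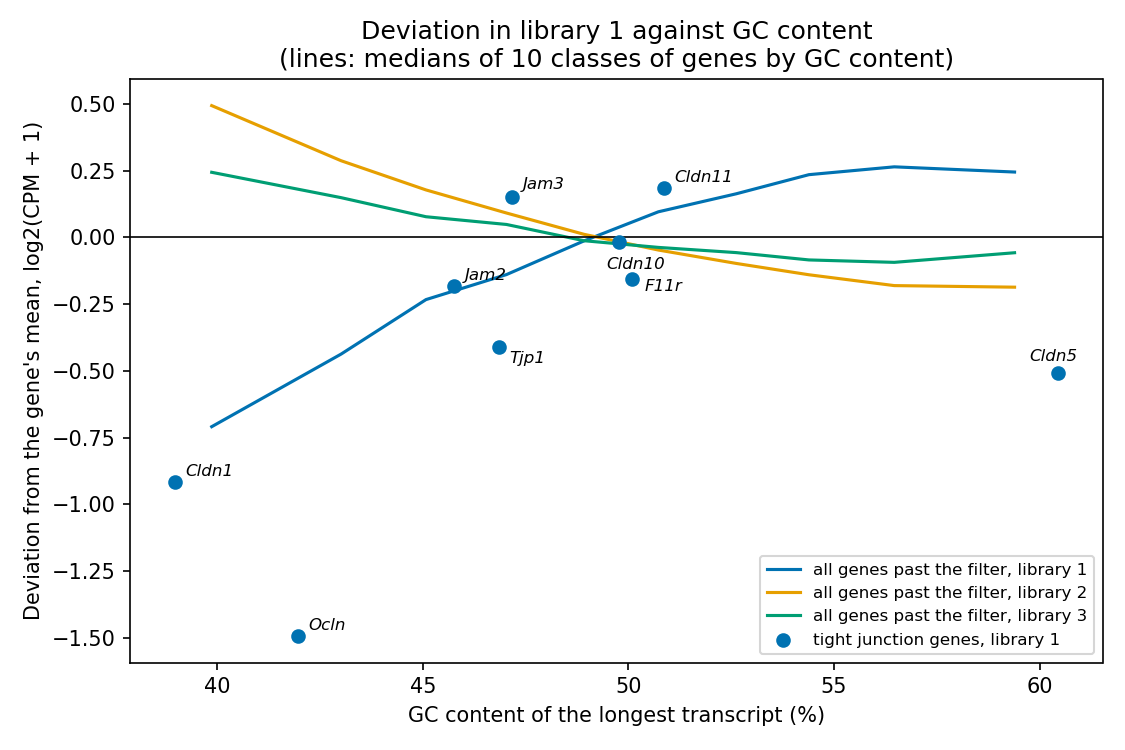
Deviation of the tight junction genes in library 1 (points, log2(CPM + 1)) against the GC content of the longest transcript (%), over the medians of 10 equal classes of all genes in each library (lines). Cldn1 (-0.92) lies a little below the line of library 1 for its GC content, and Ocln (-1.49) and Cldn5 (-0.51) lie well below it.

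The label of these genes names the arachnoid barrier, so markers of that and other cell types were set beside them. Of the marker lists, that of fibroblasts had the highest sum: its 6 genes, led by Col1a2 and Col1a1, summed to between 23489 and 29088 CPM. Of 8 arachnoid barrier markers 7 passed the filter, with a sum of 242, 349 and 403 CPM in libraries 1, 2 and 3. Most of that was Abcg2, an efflux transporter that endothelium also carries, at 176, 279 and 339 CPM, followed per kilobase by the keratin gene Krt19, which went the other way, at 38.5, 19.8 and 13.6 CPM. Of the 7 that passed, 5 were lowest in library 1, beside 40.3% of all genes past the filter. Cdh1, the E-cadherin that defines the barrier layer, was at 1.80, 3.41 and 3.78 CPM per kilobase, and the desmosome gene Dsp had 0, 9 and 0 counts. In sum, the fibroblast markers far exceeded the arachnoid barrier markers, mostly through collagen genes, Dcn and Lum. The fibroblast marker Pdgfra, with a mean of 135 CPM, was below Abcg2, at 265 CPM, but above the rest of the barrier list. Sums of unlike genes do not give the share of each cell type. The levels above are those of the whole sorted fraction.

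Other sources of these transcripts were present too. The 12 endothelial markers, led by Ly6c1 and Cdh5, summed to 150, 123 and 170 CPM, with library 2 lowest. Their order of libraries was not shared by all of them. Lowest in library 1 were 4 of the 12, beside 40.3% of all genes past the filter. Ly6c1 was lowest in library 1, as Cldn5 was, at 8.45, 10.8 and 22.4 CPM. Cdh5 was lowest in library 3, at 32.6, 33.8 and 20.3 CPM. The oligodendrocyte-defining gene Mog had 6, 0 and 17 counts, whereas Cldn11 had at least 687 in every library. Mbp and Cnp of the oligodendrocyte list were high, at 1069 ± 297 and 385 ± 142 CPM (SD, n = 3), and so was the Schwann cell gene Egr2, at 163 ± 44.2 CPM; Schwann cells also make Mbp and Cnp. The mural markers (led by Acta2 and Tagln) were highest in library 3, at 5118 CPM in sum. Those of astrocytes and ependymal cells, led per kilobase by Rsph1 and Gfap, were highest there too in sum, at 50.8 CPM. The sum over 8 choroid plexus markers was 85.8, 1826 and 2819 CPM, and over 7 macrophage and microglia markers 7.64, 172 and 490 CPM. Both sums were in the order of libraries seen for Cldn1, Cldn5 and Ocln. Most of the choroid plexus sum in libraries 2 and 3 was Ttr, at 32.6, 1593 and 2529 CPM in libraries 1, 2 and 3. Clic6 (13.6, 43.3 and 41.3 CPM) and Otx2 (17.8, 35.7 and 30.8 CPM) of that list were instead highest in library 2. The arachnoid barrier sum (242, 349 and 403 CPM) and the astrocyte and ependymal sum (23.9, 34.0 and 50.8 CPM) had the order of Cldn1, Cldn5 and Ocln too. The leading genes of the astrocyte and ependymal list did not: Rsph1 was at 2.58, 9.84 and 7.98 CPM, and Gfap at 7.79, 6.38 and 9.36 CPM. Slc1a2, the highest of that list in mean CPM, had the order, at 4.55, 7.83 and 16.6 CPM. The sum over 5 platelet markers, led by Pf4 and Itga2b, was 21.5, 17.1 and 36.7 CPM. These leading genes differed in profile: Pf4 was at 2.43, 8.43 and 20.6 CPM, and Itga2b at 16.4, 7.12 and 11.3 CPM. F11r had the same order, library 2 lowest and library 3 highest, as the sums of the platelet, endothelial, mural, oligodendrocyte and Schwann cell lists. The part of these cells in the levels of the tight junction genes was not tested. Among the marker genes the test called Cdh19 of the Schwann cell list, Ttr, Kl and Kcnj13 of the choroid plexus list, and Csf1r, C1qa, C1qb, C1qc and Cx3cr1 of the macrophage list (edgeR goodness of fit).

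The other genes of the junction were then examined in 6 lists of 57 genes. Of these, 40 passed the filter, beside 30.7% of all genes. The test called 0 of the 40 variable, beside 0.437% of all genes (edgeR goodness of fit), and 0 at an unadjusted p under 0.05, beside 7.04%. Their median range was 0.65, beside 0.67 for all genes past the filter. Marveld2, encoding tricellulin at the meeting points of 3 cells, was at 0.299, 0.308 and 0.763 CPM per kilobase, with a mean of 0.457 beside 1.15 for Ocln. The angulin genes Ildr2 and Lsr, whose products recruit tricellulin, were at 11.1 ± 3.64 and 4.54 ± 1.29 (SD, n = 3), and Ildr1 had 1 count in all.

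Among plaque scaffolds 13 of 14 genes passed the filter, and Tjp3 did not. The highest were the angiomotin family genes Amotl2 and Amotl1, at 14.2 ± 2.32 and 8.75 ± 0.79 CPM per kilobase (SD, n = 3), each above Tjp1 in every library. Of 4 other immunoglobulin-type junction genes 3 passed, led by Clmp at 21.9 ± 2.42 and the endothelial and platelet gene Esam at 19.8 ± 8.34 CPM per kilobase. Jam3 exceeded both in every library. In the polarity complex, which positions junctions, 5 of 7 genes passed, led by Pard6a (9.25 ± 2.51) and Pard6g (6.08 ± 1.38 CPM per kilobase). All 8 adherens junction genes passed, with a median of 4.59 CPM per kilobase. The actin linker Ctnna1, at 57.1 ± 4.34 CPM per kilobase (SD, n = 3), exceeded Jam3 in every library, and the mesenchymal cadherin Cdh11, at 56.9 ± 15.8, did so in libraries 1 and 2 but not in library 3.

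For each gene of the set, the listed gene with the most similar profile over the 3 libraries was sought among 104 listed genes past the filter, by Euclidean distance of deviations in log2(CPM + 1). The nearest to Cldn1 was Cldn2 (distance 0.10), to Cldn5 Abcg2 (0.079), to Cldn10 Egr2 (0.071), and to Cldn11 Pvrl1 (0.069), which was also nearest to Jam3 (0.14). The nearest to Tjp1 was Cldn6 (0.039), to Jam2 Magi3 (0.083), to F11r Cnp (0.11) and to Ocln Pf4 (0.24). With 3 libraries such likeness is common: between 4 genes (for Ocln) and 938 genes (for Jam3) of the 14408 others lay nearer than the gene named.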

How the data were processed

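The authors deposited raw counts per gene, whole numbers with no normalization, for 3 libraries. Per the labels' protocols, 2 ng of RNA (integrity number 9.7 to 10) was amplified as cDNA over 12 cycles and sequenced as paired 50 bp reads. The submitters' processing notes name the build mm10, HTSeq 0.5.3 and DESeq2 1.22.1; the aligner and the strand setting are not given in the sources used here. Counter rows for reads given to no gene (39.1% to 45.6% of each library) were left out. Gene counts came to 21002860, 28704952 and 25338616.

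CPM were computed on TMM-scaled totals (edgeR 4.0.16, R 4.3.3), with a pseudocount of 1 on the log2 scale. Genes passed filterByExpr at a minimum count of 10. Positions, exon lengths and GC content are from GENCODE M21 (GRCm38), matched by identifier for 98.9% of genes. Trends with GC content and exon length were fitted per library by splines with 4 degrees of freedom each. The test was edgeR's goodness of fit in an intercept-only model with a threshold of 0.05. It was tested on simulated data, but the outcome is not reported here. Alternatives were DESeq2 size factors (DESeq2 1.42.0), plain totals, other filters, lengths and dispersions, and leaving out each library. Since PCR copies were not marked by molecular identifiers, limits drawn from counts cover counting error only.

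Genes named are the 9 of the set, the 2 highest per kilobase of each list, every listed gene called variable and the nearest in profile. Mog, Dsp, Cdh1, Tjp3, Marveld2, Ildr1, Cldn2, Slc1a2, Clic6, Otx2 and the claudins with 0 counts were named after their values were seen. One listed claudin, Cldn25, matched no row, and some listed genes are not reported here. The set and the lists were chosen with earlier results of these data known.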

Additional observations from a re-analysis of the deposited data

How the results depend on the processing

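Of the 9 tight junction genes, 0 were called variable under 8 of 9 alternatives, and 1, Ocln, with a common dispersion. Over all genes the count (63) was 139 with no filter beyond any count, 186 with a mean count of at least 10 and 98 with GC content and length trends removed; it ranged from 13 to 29 when each replicate was left out, in fits with fewer samples. The cause of the other changes was not tested. Under 2 other scalings of the libraries, 18 of 18 gene means in CPM moved by less than 1 SD. Leaving out 1 of 3 libraries cannot move a mean by 1 SD, so it was not read against that limit; the mean of Ocln went from 4.86 to 2.55 CPM without library 3 and to 6.99 CPM without library 1. Between 4 and 5 of 8 neighbours were separated under the alternatives for the order per length. F11r and Jam2 changed places without library 3 or with the longest transcript's length, and Ocln and Cldn10 without library 2 or 3 or with that length. Not divided by length, Jam2 and Tjp1 stood above Cldn11. At a level of at least 1 CPM in every library, 37 of the 57 other junction genes were detected in place of 40. Pairing does not apply to a single group. The lowest counts behind a value were 12 for Ocln, 23 for Cldn5 and 31 for Cldn10, all in library 1 (31 also in library 2 for Cldn10).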
